A study of Homo sapiens with 6 samples.

Results

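Tissue factor, its inhibitors and anticoagulant partners, the plasminogen activators with the urokinase receptor, and the thrombin and trypsin receptors were followed in a metastatic subline of a colorectal cancer line and in its parent. The set holds 10 genes, F3, TFPI, TFPI2, THBD, PROCR, PLAU, PLAUR, PLAT, F2R and F2RL1, taken by symbol from the 24580 rows of the deposited expression table, where each had 1 row. The cells of interest were LoVo-HM, labelled a subline of LoVo with high metastatic ability, and the cells they were set against were wild-type LoVo, a long-established line grown from a human colorectal carcinoma. Both were untreated per the labels. RNA sequencing gave 3 libraries of each line, 6 in all. Neither the way LoVo-HM was obtained, nor whether it is 1 clone, nor whether the libraries of a line came from separate cultures is stated in the labels. The p-values therefore measure the spread between these libraries, which may be technical. Levels are in FPKM, a density of sequenced fragments per transcript length and library size, and so can be set side by side between genes.

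Clotting through tissue factor, a membrane protein encoded by F3, begins when it binds circulating factor VII. The complex activates factor X and leads to thrombin. TFPI blocks that complex, and thrombomodulin (THBD) together with the endothelial protein C receptor (PROCR) turns thrombin towards activating protein C, an anticoagulant. Clots and matrix are broken down by plasmin, which the urokinase (PLAU) and tissue-type (PLAT) activators cut from plasminogen, urokinase doing so largely while held on its receptor PLAUR. The protease-activated receptors are G protein-coupled receptors switched on when a protease clips their outer end: F2R (PAR1) mainly by thrombin, and F2RL1 (PAR2) by trypsin-like enzymes, matriptase and the tissue factor complex. Carcinomas, colorectal ones among them, often carry tissue factor and urokinase receptor, and intestinal epithelium is a known site of PAR2.

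LoVo-HM cells held far less tissue factor mRNA than LoVo cells, and less of the mRNAs of the protein C and urokinase receptors, while the mRNAs of the thrombin receptor PAR1 and of tissue-type plasminogen activator were higher. F3 was 5.42-fold lower in LoVo-HM in mean FPKM, PROCR 1.95-fold lower and PLAUR 1.80-fold lower. PLAT was 5.81-fold higher and F2R 2.92-fold higher in LoVo-HM. TFPI, PLAU and F2RL1 did not pass the test, and TFPI2 and THBD were at or near 0 throughout. Of the 10 genes, 8 reached a mean of 0.5 FPKM and were tested, and 5 of these passed (adjusted p under 0.05 by limma, Benjamini-Hochberg over all 14487 tested genes), 2 higher and 3 lower. Across all tested genes 44.9% passed, 21.8% as higher and 23.1% as lower in LoVo-HM, so that passing the threshold does not by itself set these genes apart. The same 5 genes had groups whose values did not overlap, as did 55.0% of all tested genes. The median log2 difference was 0.076 over the 8 tested genes and 0.0027 over all tested genes. Differences are LoVo-HM minus LoVo on the log2(FPKM + 1) scale, which understates changes of low genes. In bulk RNA, fewer cells carrying a transcript and less of it per cell cannot be told apart.

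**Figure D1:**
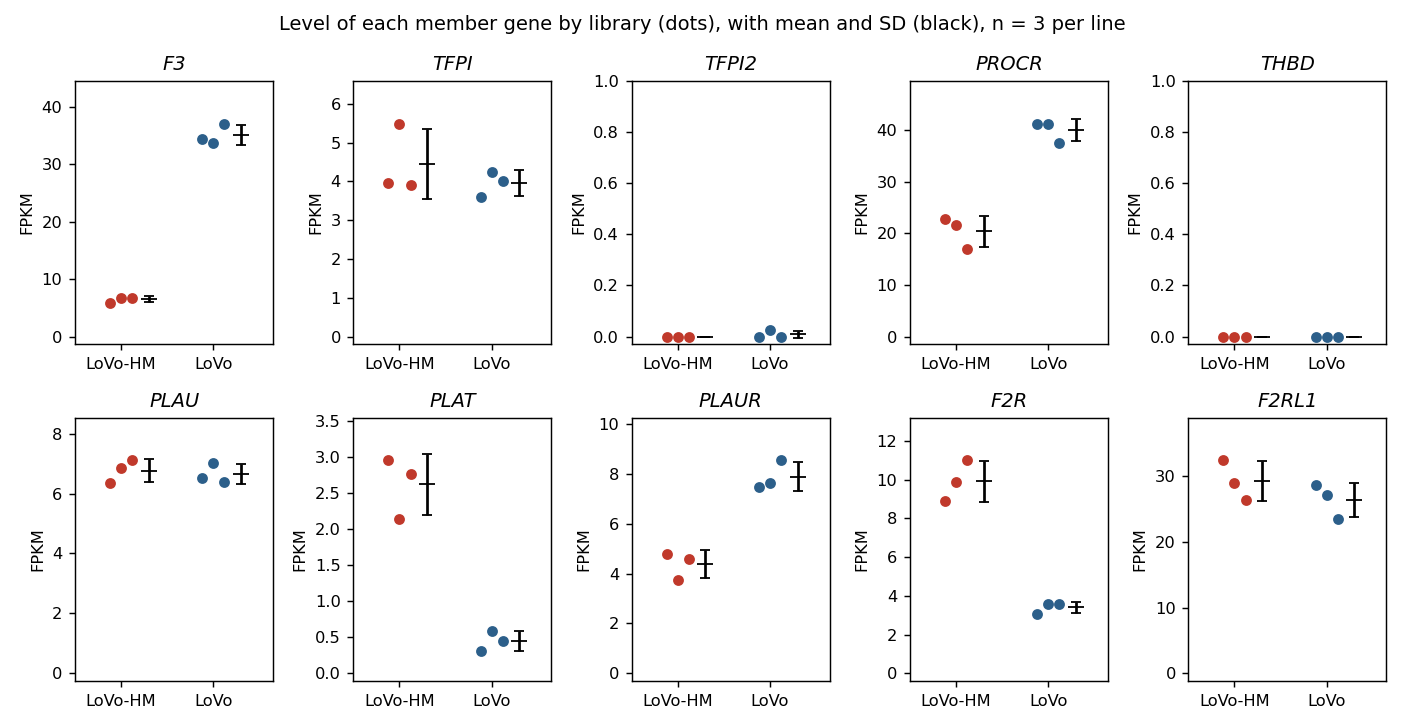
FPKM of each of the 10 genes in the 3 LoVo-HM libraries (red) and the 3 LoVo libraries (blue), with the mean and SD in black and each panel on its own linear scale from 0. F3, PROCR and PLAUR lie lower in every LoVo-HM library, PLAT and F2R lie higher in every LoVo-HM library, TFPI, PLAU and F2RL1 overlap, and TFPI2 and THBD sit at or near 0.

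The libraries were alike within a line. Pearson correlations of log2(FPKM + 1) over all rows were 0.995 within a line and 0.969 to 0.970 between lines, and library totals were 424624 to 428265 FPKM in LoVo-HM, against 434108 to 439082 FPKM in LoVo. Depth is not known, and values therefore carry no counting interval. Of 9 colorectal epithelial markers 7 were tested and all 7 passed, 5 higher and 2 lower in LoVo-HM. The 9 together summed to 2617 to 2723 FPKM in LoVo-HM, against 2020 to 2075 FPKM in LoVo, a sum made up mostly of the keratins KRT8, KRT18 and KRT19. The adhesion molecules went the other way: CDH1 (E-cadherin) had 7.91 ± 0.359 FPKM in LoVo-HM, against 48.0 ± 1.38 FPKM in LoVo, and EPCAM had 51.7 ± 2.60 FPKM in LoVo-HM, against 128 ± 1.99 FPKM in LoVo (SD, n = 3 each). Their part in the results on the 10 genes was not tested. The intestinal markers VIL1 and CDX1 were listed at 0 in all libraries. Since endothelium, platelets, monocytes and fibroblasts also make several of these 10 genes, their markers were looked up. The 8 endothelial markers summed to 3.24 to 3.79 FPKM in LoVo-HM, against 3.04 to 4.35 FPKM in LoVo, nearly all of it ESAM, with PECAM1 and KDR listed at 0. The endothelial marker CDH5 separated the lines at very low values, with 0.109, 0.0280 and 0.0599 FPKM across the LoVo-HM libraries and none in LoVo. Its level did not reach the minimum for testing. The 7 monocyte and macrophage markers summed to 0.226 to 0.306 FPKM in LoVo-HM, against 0.199 to 0.346 FPKM in LoVo, with PTPRC listed at 0. The 7 platelet markers summed to 3.27 to 4.67 FPKM in LoVo-HM, against 3.35 to 4.51 FPKM in LoVo, mostly GP1BA and ITGA2B, with PPBP and GP9 listed at 0. PF4, too low to test, was listed at 0 in every LoVo-HM library and at 0.0968, 0.277 and 0.262 FPKM in LoVo. The 8 fibroblast markers summed to 4.92 to 5.75 FPKM in LoVo-HM, against 4.83 to 6.36 FPKM in LoVo, mostly COL1A1, with COL1A2 and FAP listed at 0. Among fibroblast markers too low to test, LUM (means of 0.284 FPKM in LoVo-HM, against 0.0177 FPKM in LoVo), DCN (0.0856 FPKM in LoVo-HM, against 0.00994 FPKM in LoVo) and PDGFRA (0.0398 FPKM in LoVo-HM, against 0.00571 FPKM in LoVo) were higher in every LoVo-HM library, all near 0. None of the 4 tested markers of these other cell types passed the test.

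The DNA just before the RefSeq start of the 3 genes that were lower in LoVo-HM is shown because the promoters of F3 and PLAUR are textbook targets of AP-1, a dimer of FOS and JUN family proteins. RefSeq promoter windows (GRCh38.p14) were searched for 7 of the 10 genes. PLAT was left out of this step by choice, and no window was found for F2R or THBD. The 250 bases upstream of the RefSeq start are printed 5′ to 3′ on the gene's strand. Each match to the AP-1 motif TGANTCA, searched on both strands, is in capitals. The gene positions given further on are those of GENCODE, whose outermost start can differ: the PLAUR window lies wholly inside the GENCODE gene, and the F3 window partly so.
F3 (chr1:94541760-94542009, minus strand): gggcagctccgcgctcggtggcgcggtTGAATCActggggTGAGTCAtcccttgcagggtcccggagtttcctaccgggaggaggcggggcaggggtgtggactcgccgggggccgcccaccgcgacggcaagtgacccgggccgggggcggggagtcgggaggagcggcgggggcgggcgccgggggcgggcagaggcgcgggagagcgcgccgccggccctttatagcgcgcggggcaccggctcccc
PLAUR (chr19:43670170-43670419, minus strand): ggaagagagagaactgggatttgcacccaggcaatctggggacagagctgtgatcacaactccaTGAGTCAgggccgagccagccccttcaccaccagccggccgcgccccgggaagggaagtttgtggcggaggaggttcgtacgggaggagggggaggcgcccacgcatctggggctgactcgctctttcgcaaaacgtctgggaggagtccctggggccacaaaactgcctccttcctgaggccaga
PROCR (chr20:35171822-35172071, plus strand): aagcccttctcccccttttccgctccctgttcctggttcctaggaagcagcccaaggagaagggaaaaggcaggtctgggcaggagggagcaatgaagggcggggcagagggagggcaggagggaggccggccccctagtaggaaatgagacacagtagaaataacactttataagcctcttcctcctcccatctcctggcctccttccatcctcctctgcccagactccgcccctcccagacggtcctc

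The F3 window held 2 matches to the AP-1 motif, beginning 223 and 210 bases before the start, and the PLAUR window held 1, beginning 186 bases before it. PROCR had none, nor did the windows of TFPI, PLAU and F2RL1, and TFPI2, which was at or near 0 in these cells, had 1. Of 35116 RefSeq windows of the same length, 6.57% held the motif. The F3 window was 78.0% G and C with 34 CpG pairs, 4 GC boxes (GGGCGG, both strands) and 1 TATA match (TATAA, both strands). PLAUR was 63.2% G and C with neither motif, and PROCR was 60.0% G and C with 2 GC boxes and 1 place where TATA matches on both strands overlap. A GC box was present in 42.6% and a TATA match in 18.9% of all windows. These matches describe the letters only, and no binding was measured. DNA farther from the start was not searched, so a window without a match does not show that a gene lacks AP-1 sites.

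Among the genes that start or restrain clotting, tissue factor had the largest difference of the set on the log2(FPKM + 1) scale, while PLAT had the larger fold in mean FPKM. F3 (ENSG00000117525, chromosome 1, 94529225 to 94541800, GRCh38) had 5.89, 6.75 and 6.78 FPKM in the LoVo-HM libraries, against 34.5, 33.8 and 37.1 FPKM in the LoVo libraries. Every LoVo-HM library lay below every LoVo library, and the spread within a line was small beside the gap. The mean was 6.47 ± 0.507 FPKM in LoVo-HM, against 35.1 ± 1.72 FPKM in LoVo (SD, n = 3 each). F3 fell by 2.27 ± 0.0697 on the log2 scale in LoVo-HM (SE, limma adjusted p = 3.48e-08). This was the 127th largest decrease of the 14487 tested genes. By level, F3 stood at percentile 43.3 of the tested genes in LoVo-HM and at percentile 86.2 in LoVo.

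TFPI, the secreted and membrane-bound inhibitor of the tissue factor complex, had 3.97, 5.49 and 3.90 FPKM in LoVo-HM, against 3.59, 4.25 and 4.01 FPKM in LoVo. The groups overlapped, and only the second LoVo-HM library stood above the LoVo values. The log2 difference was 0.13 (95% interval -0.15 to 0.40, limma adjusted p = 0.417), which leaves room for a change of up to that size in either direction. TFPI2, a related inhibitor that acts mainly on plasmin and trypsin, was listed at 0 in 5 libraries and at 0.0244 FPKM in the second LoVo library. It was too low to test.

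On the anticoagulant side, THBD, which encodes thrombomodulin, was listed at 0 in all 6 libraries, while its partner was present. PROCR (ENSG00000101000, chromosome 20, 35172073 to 35216240) had 22.7, 21.5 and 17.0 FPKM in LoVo-HM, against 41.2, 41.2 and 37.5 FPKM in LoVo. No LoVo-HM library reached the lowest LoVo value. PROCR averaged 20.4 ± 3.01 FPKM in LoVo-HM, against 39.9 ± 2.16 FPKM in LoVo (SD, n = 3 each). It fell by 0.94 ± 0.0996 on the log2 scale in LoVo-HM (SE, limma adjusted p = 9.65e-05). The third LoVo-HM library was the lowest. The PROCR gene spans 14496 bases of MMP24OS on the opposite strand, listed at 11.8 FPKM in LoVo-HM, against 7.68 FPKM in LoVo. This overlap is of whole gene spans, introns included, and shared exons were not looked for. The strand setting is not given in the sources used here, so reads from any shared exon may not have been told apart.

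Of the plasminogen activators, urokinase did not differ beyond its spread and the tissue-type activator was higher in the subline. PLAU (ENSG00000122861, chromosome 10, 73909177 to 73917497) had 6.35, 6.85 and 7.11 FPKM in LoVo-HM, against 6.51, 7.02 and 6.40 FPKM in LoVo. The values interleaved, with a log2 difference of 0.023 and a 95% interval of -0.14 to 0.19 (limma adjusted p = 0.816). The opposite strand carries C10orf55, with a mean of 0.212 FPKM in LoVo-HM, against 0.303 FPKM in LoVo. PLAT (ENSG00000104368, chromosome 8, 42175233 to 42207724) had 2.95, 2.14 and 2.76 FPKM in LoVo-HM, against 0.314, 0.589 and 0.447 FPKM in LoVo. Every LoVo-HM library lay above every LoVo library. PLAT averaged 2.61 ± 0.423 FPKM in LoVo-HM, against 0.450 ± 0.137 FPKM in LoVo (SD, n = 3 each). It rose in LoVo-HM by 1.32 ± 0.125 on the log2 scale (SE, limma adjusted p = 5.12e-05), and by 2.32 with a pseudocount of 0.1 in place of 1. Its LoVo mean was below the 0.5 FPKM minimum, so it entered the test through its LoVo-HM level. PLAT remained a low transcript, at percentile 25.3 of the tested genes in LoVo-HM and 2.13 in LoVo.

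PLAUR, the lipid-anchored receptor that concentrates urokinase on the cell surface, went the other way from PLAT. PLAUR (ENSG00000011422, chromosome 19, 43646095 to 43670547) had 4.80, 3.73 and 4.58 FPKM in LoVo-HM, against 7.46, 7.62 and 8.54 FPKM in LoVo. The groups did not overlap. PLAUR averaged 4.37 ± 0.566 FPKM in LoVo-HM, against 7.87 ± 0.584 FPKM in LoVo (SD, n = 3 each), and it fell by 0.73 ± 0.0964 on the log2 scale in LoVo-HM (SE, limma adjusted p = 0.000376). Its upstream window, like that of F3, is among those printed above.

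Of the protease-activated receptors, PAR1 was higher in LoVo-HM, PAR2 did not pass the test, and the remaining members of the family were at or near 0. F2R (ENSG00000181104, chromosome 5, 76716043 to 76735781) had 8.88, 9.89 and 10.96 FPKM in LoVo-HM, against 3.07, 3.56 and 3.57 FPKM in LoVo. The lowest LoVo-HM library was above the highest LoVo library. F2R averaged 9.91 ± 1.04 FPKM in LoVo-HM, against 3.40 ± 0.285 FPKM in LoVo (SD, n = 3 each). It rose in LoVo-HM by 1.31 ± 0.0920 on the log2 scale (SE, limma adjusted p = 7.67e-06). Its increase ranked 213th of all tested genes on the log2(FPKM + 1) scale, where that of PLAT ranked 209th. With a pseudocount of 0.1 the log2 differences lay farther apart, at 1.51 for F2R and 2.32 for PLAT.

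F2RL1 (ENSG00000164251, chromosome 5, 76818933 to 76835315) had 32.4, 29.0 and 26.3 FPKM in LoVo-HM, against 28.6, 27.1 and 23.5 FPKM in LoVo. The groups overlapped, with a log2 difference of 0.14 and a 95% interval of -0.070 to 0.35 (limma adjusted p = 0.246). F2RL2 (PAR3), which lies upstream of F2R in the same cluster on chromosome 5, was listed at 0 in 5 libraries and at 0.0331 FPKM in the third LoVo library. F2RL3 (PAR4) was listed at 0 in all 6. F2R and F2RL1 are 83151 bases apart, and F2RL2 and F2R 92608 bases apart, and of the 3 neighbours F2R passed the test, F2RL1 did not and F2RL2 was too low to test.

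**Figure D2:**
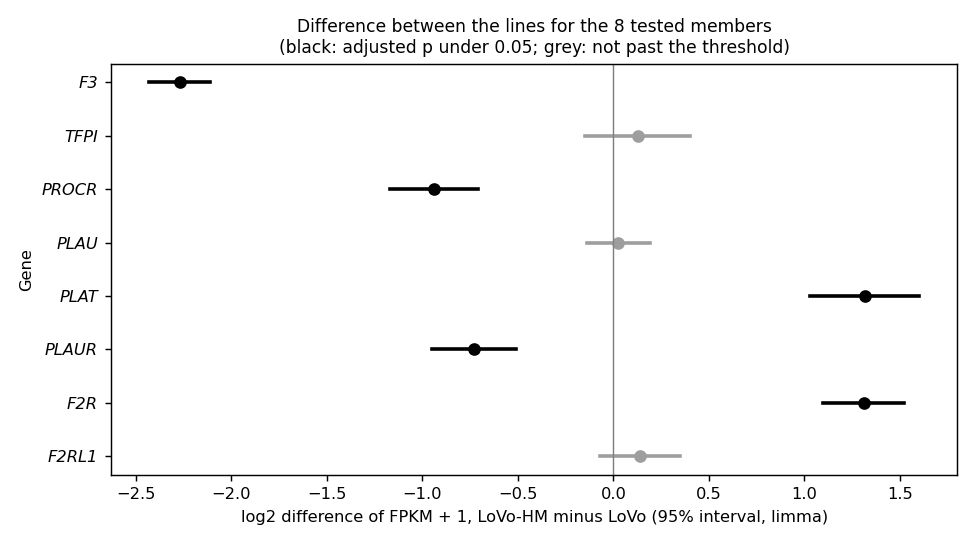
Log2 difference of FPKM + 1, LoVo-HM minus LoVo, on the horizontal axis for the 8 tested genes, with the 95% interval from limma. F3, PROCR and PLAUR lie left of 0, PLAT and F2R right of 0 (all black, adjusted p under 0.05), and the intervals of TFPI, PLAU and F2RL1 (grey) include 0.

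The order of the levels differed between the lines. In LoVo-HM it was F2RL1, PROCR, F2R, PLAU, F3, TFPI, PLAUR and PLAT, with TFPI2 and THBD at 0, and the neighbours PLAU and F3, and TFPI and PLAUR, overlapped. In LoVo it was PROCR, F3, F2RL1, PLAUR, PLAU, TFPI, F2R and PLAT, and the ranges of these neighbours did not overlap, although the lowest PROCR library (37.5 FPKM) and the highest F3 library (37.1 FPKM) nearly touched. F3 was thus among the 3 most abundant of the set in LoVo and level with PLAU in LoVo-HM.

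Ratios within a library show how partners stood to each other. In all, 6 were compared, of which 5 are given, by an exact two-sided permutation test over the libraries, in which 3 against 3 cannot give a p below 0.10, so none could pass 0.05. The log2 ratio of F3 to TFPI, both as FPKM + 1, was 0.47, 0.26 and 0.67 in LoVo-HM, against 2.95, 2.73 and 2.92 in LoVo (difference -2.40, exact p = 0.10, adjusted over the 6 ratios 0.12). The tissue factor mRNA was thus near the level of its inhibitor's in LoVo-HM and well above it in LoVo. The ratio of F3 to TFPI2 differed by -2.26 (exact p = 0.10, adjusted 0.12), which is essentially the F3 difference since TFPI2 was at or near 0.

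The log2 ratio of PLAU to PLAUR was 0.34, 0.73 and 0.54 in LoVo-HM, against -0.17, -0.10 and -0.37 in LoVo (difference 0.75, exact p = 0.10, adjusted 0.12). Ligand mRNA exceeded receptor mRNA in every LoVo-HM library and was below it in every LoVo library. The log2 ratio of PLAU to PLAT was 0.90, 1.32 and 1.11 in LoVo-HM, against 2.52, 2.34 and 2.35 in LoVo (difference -1.29, exact p = 0.10, adjusted 0.12). In plain FPKM, PLAT made up 27.8 ± 3.96% of the summed activator level in LoVo-HM and 6.29 ± 1.58% in LoVo (SD, n = 3 each, exact permutation p = 0.10). The sum itself was 9.38 ± 0.445 FPKM in LoVo-HM, against 7.09 ± 0.446 FPKM in LoVo.

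The log2 ratio of F2RL1 to F2R was 1.76, 1.46 and 1.19 in LoVo-HM, against 2.86, 2.62 and 2.42 in LoVo (difference -1.17, exact p = 0.10, adjusted 0.12), with no overlap between the lines. F2R made up 21.5, 25.4 and 29.4% of the summed FPKM of the 2 receptors in LoVo-HM, against 9.69, 11.6 and 13.2% in LoVo. PAR2 mRNA remained the more abundant of the pair in every library.

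**Figure D3:**
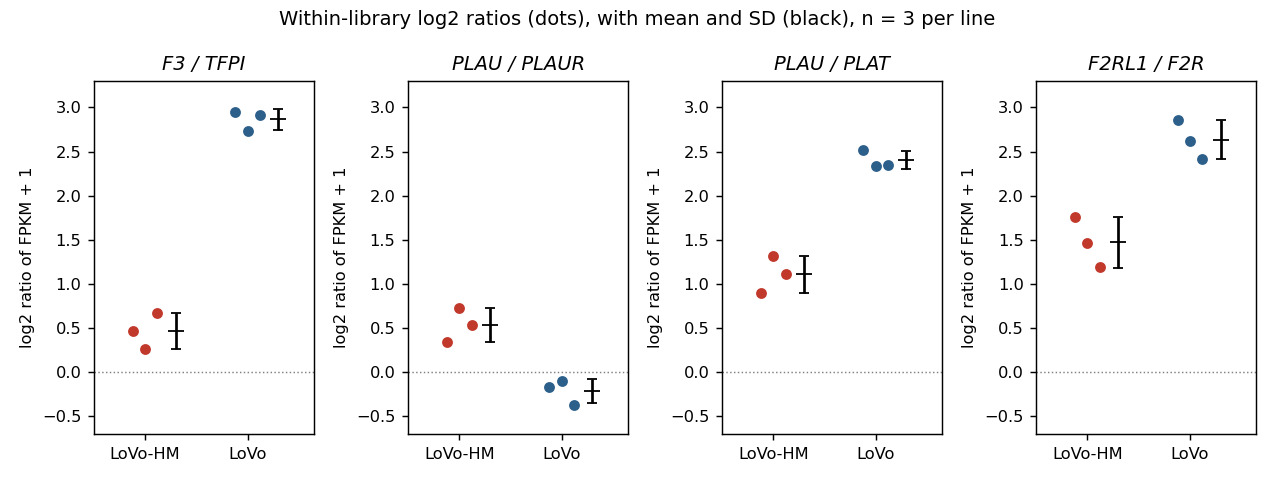
Log2 ratios of FPKM + 1 within each library for 4 pairs of partners, in the 3 LoVo-HM libraries (red) and the 3 LoVo libraries (blue), with mean and SD in black. The lines separate for F3 over TFPI, PLAU over PLAUR, PLAU over PLAT and F2RL1 over F2R.

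Other genes of the clotting and plasmin systems were read from lists, each given by its counts beside the 44.9% of all tested genes that passed. Of 21 other clotting factors and enzymes of their maturation, 8 were tested, 2 of them higher, 2 lower and 4 not past the threshold (median log2 difference 0.20). The liver-made factors F5, F7, F9 and F11 and the 3 fibrinogen chains were listed at 0. MCFD2, which helps carry factors V and VIII out of the endoplasmic reticulum, rose, at 36.3 ± 2.28 FPKM in LoVo-HM, against 23.1 ± 0.202 FPKM in LoVo (SD, n = 3 each). F12, the contact factor, fell, at 9.37 ± 0.300 FPKM in LoVo-HM, against 13.5 ± 1.04 FPKM in LoVo. F8 passed narrowly (limma adjusted p = 0.0383), and the call was lost without LoVo-HM replicate 1 (0.125) or 3 (0.0664), without LoVo replicate 2 (0.118) or 3 (0.103), and without a filter on low values (0.0761).

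The anticoagulants showed more decreases than increases, 4 lower, 1 higher and 2 not past of 7 tested among 13 (median -0.42). PROS1, which encodes protein S, the cofactor of activated protein C, had 1.30, 1.30 and 1.50 FPKM in LoVo-HM, against 3.53, 4.32 and 4.38 FPKM in LoVo. It fell by 1.10 ± 0.0994 on the log2 scale (SE, limma adjusted p = 3.71e-05), in the same direction as PROCR, the receptor of its pathway. The heparan sulphate carriers SDC4 and SDC1, whose chains can bind antithrombin, fell too, with log2 differences of -0.91 ± 0.0701 and -0.42 ± 0.0579 (SE). ANXA5, which covers the phospholipid that clotting complexes need, rose (log2 difference 0.33 ± 0.0522, SE).

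Among inhibitors of plasmin and its activators, 5 of 9 listed genes were tested, 2 of them higher, 2 lower and 1 not past (median 0.32). SERPINE2, protease nexin-1, which inhibits thrombin, urokinase and the tissue-type activator, had 41.7, 37.6 and 41.4 FPKM in LoVo-HM, against 8.04, 8.25 and 6.95 FPKM in LoVo. THBS1, thrombospondin-1, a matrix protein that can bind plasmin and slow it, had 13.9, 12.8 and 13.4 FPKM in LoVo-HM, against 1.52, 1.40 and 1.85 FPKM in LoVo. They rose by 2.24 ± 0.0750 and 2.47 ± 0.0862 on the log2 scale (SE, limma adjusted p = 6.39e-08 and 8.31e-08), with no overlap between the lines. SERPINB8, an intracellular serpin, fell (1.60 ± 0.300 FPKM in LoVo-HM, against 4.17 ± 0.383 FPKM in LoVo).

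Plasminogen itself (PLG) was listed at 0 in the 3 LoVo-HM libraries and at up to 0.189 FPKM in LoVo. Its surface binding proteins were abundant, with 3 higher, 1 lower and 3 not past of 7 tested among 9 names, of which H2BC4 and HIST1H2BC are the newer and older symbol of 1 gene. ANXA2, the calcium-dependent membrane protein that binds plasminogen and PLAT with S100A10, rose (497 ± 25.6 FPKM in LoVo-HM, against 273 ± 13.3 FPKM in LoVo). S100A10 itself did not pass (58.5 ± 2.48 FPKM in LoVo-HM, against 57.8 ± 4.87 FPKM in LoVo). PLGRKT, a plasminogen receptor with a terminal lysine, fell (6.37 ± 0.354 FPKM in LoVo-HM, against 10.6 ± 0.0490 FPKM in LoVo). ENO1 and KRT8 passed with log2 differences of 0.17 each, but after quantile normalization neither passed, at 0.058 for ENO1 and -0.0080 for KRT8.

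Receptors that clear urokinase complexes or work beside PLAUR were lower on balance, 6 lower, 2 higher and 3 not past of 11 tested among 14 (median -0.24). ITGA3, an integrin chain known to associate with PLAUR, fell, with 6.48 ± 0.538 FPKM in LoVo-HM, against 28.3 ± 1.09 FPKM in LoVo. EGFR, through which PLAUR complexes can signal, fell as well (7.46 ± 0.390 FPKM in LoVo-HM, against 21.9 ± 0.0161 FPKM in LoVo), and so did the vitronectin receptor chain ITGAV (log2 difference -0.59) and ITGB1 (-0.27). SORT1 (-0.25) and ITGA5 (-0.24) were the remaining decreases. The 2 that rose were MRC2 (log2 difference 0.37) and ITGB5 (0.19). The clearance receptors LRP1 and IGF2R did not pass.

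Of 17 proteases reported to cleave protease-activated receptors, 6 were tested, 4 lower, 1 higher and 1 not past (median -0.86), and 8 were listed at 0 in every library. ST14, matriptase, an activator of PAR2 and of urokinase, had 31.5, 33.1 and 30.8 FPKM in LoVo-HM, against 62.5, 60.9 and 62.4 FPKM in LoVo. MMP1, a collagenase that can cleave PAR1, had 0.220, 0.134 and 0.209 FPKM in LoVo-HM, against 3.23, 2.76 and 2.81 FPKM in LoVo. Both fell, with log2 differences of -0.94 ± 0.0465 for ST14 and -1.73 ± 0.101 for MMP1 (SE, limma adjusted p = 7.61e-07 and 2.28e-06), and MMP1 stood at -3.41 with a pseudocount of 0.1. CTSS, cathepsin S, fell as well (log2 difference -1.30, and -2.35 with a pseudocount of 0.1). The LoVo-HM means of MMP1 (0.188 FPKM) and CTSS (0.414 FPKM) were below the 0.5 FPKM minimum, so both entered the test, the count and the median through their LoVo level. PRSS3, mesotrypsin, rose (24.4 ± 1.43 FPKM in LoVo-HM, against 13.2 ± 0.393 FPKM in LoVo), an uncertain level because trypsin genes are close copies of each other. PRSS8, prostasin, was the remaining member that fell (log2 difference -0.78 ± 0.0921, SE), and TMPRSS2 did not pass.

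All 21 transducers of the receptors were tested, 10 higher, 4 lower and 7 not past (median 0.19). GNA13, a G protein subunit through which PAR1 signals, rose (29.3 ± 1.70 FPKM in LoVo-HM, against 19.2 ± 1.04 FPKM in LoVo), as did ARHGEF12, a nucleotide exchange factor that it activates (40.3 ± 1.98 FPKM in LoVo-HM, against 28.0 ± 0.809 FPKM in LoVo). ARRB2, a beta-arrestin of receptor uptake, rose (20.7 ± 0.470 FPKM in LoVo-HM, against 14.4 ± 0.431 FPKM in LoVo). GRK5, a kinase that desensitises PAR1, fell (1.58 ± 0.349 FPKM in LoVo-HM, against 4.26 ± 0.179 FPKM in LoVo, log2 difference -1.04 ± 0.110, SE, limma adjusted p = 9.96e-05). The remaining decreases were in PLCB1 (log2 difference -0.93), GNAQ (-0.36) and PLCB3 (-0.22), which also transmit receptor signals. PLCB1 had 0.632 ± 0.117 FPKM in LoVo-HM, against 2.12 ± 0.245 FPKM in LoVo.

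**Figure D4:**
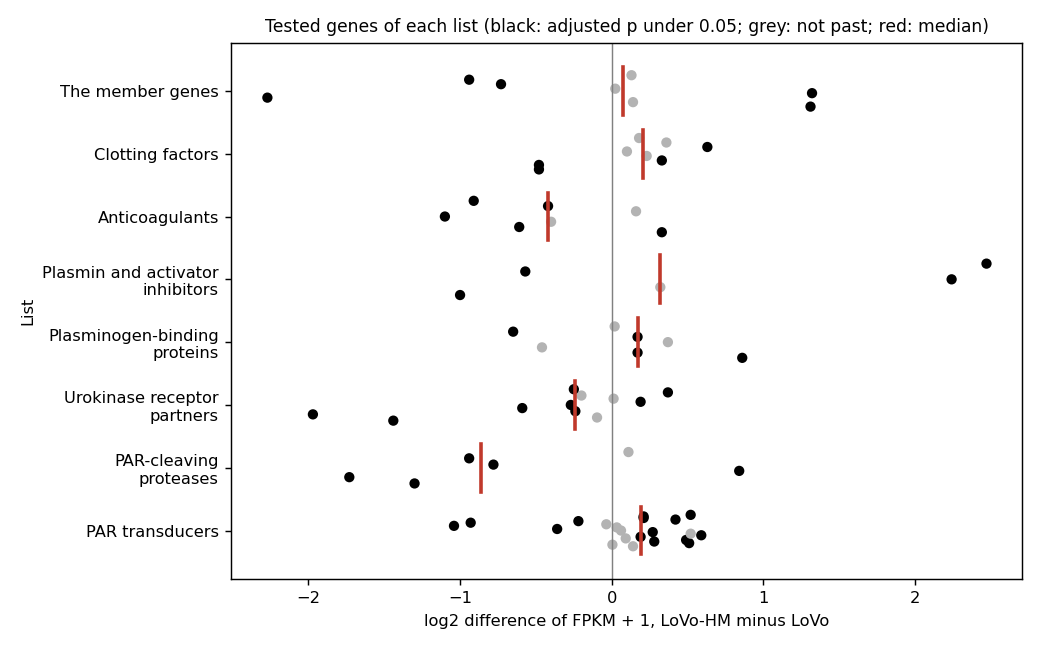
Log2 difference of FPKM + 1, LoVo-HM minus LoVo, for every tested gene of the set and of 7 lists (black, adjusted p under 0.05; grey, not past), with the median of each list in red. The set spreads from F3 at -2.27 to PLAT at 1.32, the inhibitors of plasmin and its activators reach 2.24 (SERPINE2) and 2.47 (THBS1), and the median of the PAR-cleaving proteases is -0.86.

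Genes whose levels over the 6 libraries lay nearest to those of the most changed members were found by Euclidean distance of log2(FPKM + 1). For F3 these were LAMB3, TRIM7 and ITGA3, at distances of 0.508, 0.556 and 0.566. LAMB3 had 6.39 ± 0.246 FPKM in LoVo-HM, against 42.3 ± 1.28 FPKM in LoVo. For PLAT they were TRERF1, ZNF704 and MSRB3, at 0.302, 0.332 and 0.376. TRERF1 had 2.87 ± 0.443 FPKM in LoVo-HM, against 0.505 ± 0.0416 FPKM in LoVo.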

How the data were processed

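RNA was sequenced from 3 LoVo-HM and 3 LoVo libraries, which the labels' protocols say were built with a TruSeq kit from total RNA. The authors deposited 1 table of FPKM values. GRCh38 is the build in the submitters' processing notes. Which aligner, counter, annotation and strand setting made the values is not given in the sources used here. No column was identical to another. Low values were checked for steps worth 1 read. Of 1617 genes under 0.3 FPKM in a pair of libraries, at most 3.40% of ratios fell in 1 bin of 0.05 log2 units, so depth could not be recovered.

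All rows were analysed as log2(FPKM + 1), with a minimum mean of 0.5 FPKM, by limma 3.58.1 in R 4.3.3 with a variance trend and two-sided tests. Benjamini-Hochberg adjusted p under 0.05 was called. The fit was tested on simulated data. Ratios used exact permutation tests in scipy 1.17.1. Positions are from GENCODE 29, matched by Ensembl identifier, and promoter windows from RefSeq. The members and lists were chosen with earlier results of these data known. All 10 members are named, with up to 4 genes of each list, chosen by smallest p among genes past the threshold and at 1 FPKM or more, and the 3 nearest genes of the 2 most changed members. Genes named only as listed at 0, and PLG, ESAM, COL1A1, LUM, DCN, PDGFRA, PF4, ITGA2B, CDH1, EPCAM, KRT18, KRT19, PRSS8, TMPRSS2, S100A10, H2BC4, HIST1H2BC, LRP1, IGF2R, MMP24OS and C10orf55, were added after their values were seen. So were CDH5, GNAQ, PLCB1, PLCB3, SORT1, ITGA5, MRC2 and ITGB5. Alternatives were pseudocounts of 0.1 and 0.5, no filter or a minimum mean of 2 FPKM, 3 other scalings, 2 other variance fits, the replicate number as a block, and each library left out. One planned ratio and some list genes are not reported here.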

Additional observations from a re-analysis of the deposited data

How the results depend on the processing

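F3, PROCR, PLAUR and F2R kept their direction and passed the threshold under all 16 alternatives, and PLAT under the 15 that tested it. Log2 differences ranged from -2.42 to -2.22 for F3, -1.02 to -0.82 for PROCR, -0.84 to -0.64 for PLAUR, 1.24 to 1.51 for F2R and 1.25 to 2.32 for PLAT. With a minimum mean of 2 FPKM PLAT was not tested, and 4 members passed. F2RL1 came nearest to the threshold with the replicate block (adjusted p = 0.0582). With a library left out, TFPI ranged from -0.0028 (without LoVo-HM replicate 2) to 0.20 and PLAU from -0.0082 (without LoVo-HM replicate 3) to 0.063, never past the threshold. Of all genes, 5484 to 7002 passed, against 6508 as reported, and the reported ratios kept their signs.

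Some list counts moved by more than 1.5 times. Plasminogen-binding proteins past the threshold numbered 2 with quantile normalization, against 4. PAR-cleaving proteases numbered 3 with a minimum mean of 2 FPKM, against 5, because MMP1 and CTSS were then not tested. Platelet markers numbered 1, against 0, without a filter (PF4, lower), with quantile normalization and with the replicate block (ITGA2B, higher), and 0 to 1 when a library was left out. Fibroblast markers numbered 2 (LUM and DCN, both higher in LoVo-HM), against 0, without a filter, and 0 to 1 when a library was left out. Where no value shows it, the cause was not tested.

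Same-numbered libraries did not deviate together (correlations -0.00701, 0.0215 and 0.0264), so the numbers were not taken to pair them. The replicate block left 5 members past the threshold. Unknown depth limits the low genes most, PLAT and MMP1 among them.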
